A study of Mus musculus with 4 samples.

Results

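The genes described here encode the transcription factor NRF2 (Nfe2l2), 6 enzymes that it is known to switch on (Hmox1, Nqo1, Gclc, Gclm, Txnrd1 and Srxn1) and 3 subunits of NADPH oxidases (Cybb, Cyba and Nox4). They were picked by gene symbol, and all 10 were found among the 24054 genes of the soleus RNA-seq table. The soleus, a slow hindlimb muscle, came from female *mdx* mice (C57BL/10ScSn-DMDmdx/J), which lack dystrophin. 2 libraries were from mice infused with mouse cardiosphere-derived cells (mCDCs) and 2 from mice infused with vehicle, the culture medium IMDM. Infusions went into the femoral vein each month, starting at 8 weeks of age, and muscles were taken at the 12-month endpoint of the study. The mCDCs were grown from the heart of a C57BL/10ScSn/J mouse, which has dystrophin. Every mouse carried the *mdx* mutation and no healthy muscle was analysed here, so the values compare infused dystrophic muscles with each other only.

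NRF2 is held in the cytoplasm by KEAP1, which hands it to a ubiquitin ligase for destruction. Oxidants and electrophiles modify KEAP1, NRF2 then accumulates in the nucleus, pairs with a small MAF protein and binds antioxidant response elements near genes for glutathione synthesis, thioredoxin and peroxiredoxin recycling, quinone reduction and haem breakdown. NADPH oxidases sit on the other side of this balance, since they pass electrons from NADPH to oxygen and make superoxide or hydrogen peroxide. In dystrophic muscle the phagocyte oxidase NOX2 is found in invading macrophages and in fibres, and NOX4 is known from fibroblasts, blood vessels and muscle. Because NRF2 is controlled mainly through its stability, the transcript of Nfe2l2 is not a readout of its activity.

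Sequence before the transcription start was read from RefSeq (GRCm38.p6) for the 8 genes with an entry, because NRF2 acts through short motifs there. Both strands of windows from 250 bases before to 50 bases after the start were searched for the antioxidant response element core, TGACNNNGC or TGAGNNNGC. This search was chosen after the expression values were known. A match was present in 27.8% of all 32851 windows, and in 30.8% of the 27025 genes with at least 1 window. Of the 8 genes, 4 had a match: Srxn1, Nfe2l2, Gclm and Txnrd1, the last in 1 of its 3 windows. Srxn1 had 3 matches, more than any of the other 7. The share of all windows with 3 matches was not counted, so whether 3 is unusual is not known. A link between matches and expression was not tested. Its 250 bases upstream of the start (chr2:152105274-152105523, plus strand) are shown whole, with capitals marking each match of the element and of TGANTCA. The latter is the AP-1 core, present in 7.81% of windows, and it overlaps the element where the letters read TGAGTCAGC. The third match lies past the start and is shown with those of the other genes, each with 10 bases on either side and the match in capitals.
Srxn1 upstream: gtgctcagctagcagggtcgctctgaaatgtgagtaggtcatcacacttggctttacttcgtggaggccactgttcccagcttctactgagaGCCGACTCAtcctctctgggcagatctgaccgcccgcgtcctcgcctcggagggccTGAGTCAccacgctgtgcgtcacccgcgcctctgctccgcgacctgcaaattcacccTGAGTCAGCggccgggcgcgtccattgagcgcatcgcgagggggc
Srxn1 past the start (chr2:152105542-152105570, plus strand): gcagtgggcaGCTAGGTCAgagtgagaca
Nfe2l2 (chr2:75704885-75704913, minus strand): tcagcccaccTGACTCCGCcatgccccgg
Gclm (chr3:122245413-122245441, plus strand): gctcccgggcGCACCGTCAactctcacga
Txnrd1 (chr10:82859104-82859132, plus strand): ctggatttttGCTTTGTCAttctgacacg
In Srxn1 the capital stretch TGAGTCAGC begins 45 bases before the start and GCCGACTCA begins 158 bases before it. The windows of Nqo1, Nox4, Cyba and Cybb held no match of the element, and that of Cybb held 1 TGANTCA. A match is a run of letters and not evidence of binding, and these windows cover only bases near the start.

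The expected counts of the 4 libraries summed to between 22481391 and 27187425, a 1.21-fold range. Poisson intervals given for single libraries cover counting error only. The labels do not say whether the libraries of a group came from separate mice, so every p rests on spread between these libraries, which may be technical. The fitted p values also borrow spread from other genes. The soleus label was checked against myosin heavy chains. Myh7 of slow fibres was at 38240 to 47470 CPM (the count scaled to a common library size) in the 4 libraries. Myh2 was at 6749 to 10860 CPM, Myh1 of fast fibres at 602.7 to 4490 CPM and Myh4 of the fastest fibres at 47.5 to 2096 CPM. Both ends of the Myh4 range were mCDC libraries, replicate 1 at 2096 CPM and replicate 2 at 47.5 CPM. Vehicle replicates 1 and 2 were at 162.9 and 411.0 CPM. Not every fast fibre gene differed so, as Tnnt3 was at 5709 and 5930 CPM in mCDC replicates 1 and 2. The part of fibre content in other values was not tested. Calls required that edgeR's quasi-likelihood F-test give a fold above 1.5 and, before adjustment, p below 0.05. Of the 13652 genes tested, 172 were called higher in the muscles of mCDC mice and 374 lower. This split had 31.5% of calls higher, and 42.9% (212 higher, 282 lower) once each library's trend across genes with transcript length and GC content was removed. With all 4 libraries, no gene had an adjusted p under 0.05 with edgeR, where 947 had an unadjusted p under 0.05, and 51 had an adjusted p under 0.05 with DESeq2. With edgeR, leaving out mCDC replicate 1 gave 100 such genes and leaving out mCDC replicate 2 gave 15, while omitting a vehicle library gave 0 (replicate 1) or 1 (replicate 2). Log2 fold changes are mCDC minus vehicle throughout, their median over all genes tested was -0.0094, and ± gives the SE. With 2 libraries against 2, p from an exact permutation test cannot go below 0.33.

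All 10 genes, each annotated by GENCODE as protein-coding (coordinates below are those of GRCm38), passed the filter on low counts, and 2 of them were called, Srxn1 higher and Nox4 lower in mCDC muscles. Among all genes tested, 4.0% were called, 1.26% in the direction of Srxn1 and 2.74% in that of Nox4. The 2 libraries of a group lay entirely above or below those of the other group for 5 of the 10 genes, where 38.7% of all genes tested did so. Hmox1, Txnrd1 and Srxn1 lay above vehicle, and Nqo1 and Nox4 below. The median log2 fold change was 0.03 over the 10 genes, 0.19 over the 6 enzymes and -0.47 over the 3 oxidase subunits. As each library was left out in turn, these medians ran from -0.014 to 0.12, from 0.11 to 0.24 and from -0.89 to 0.16. Each of the 5 genes had p = 0.33 in the exact permutation test (two-sided), the smallest it allows.

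**Figure D1:**
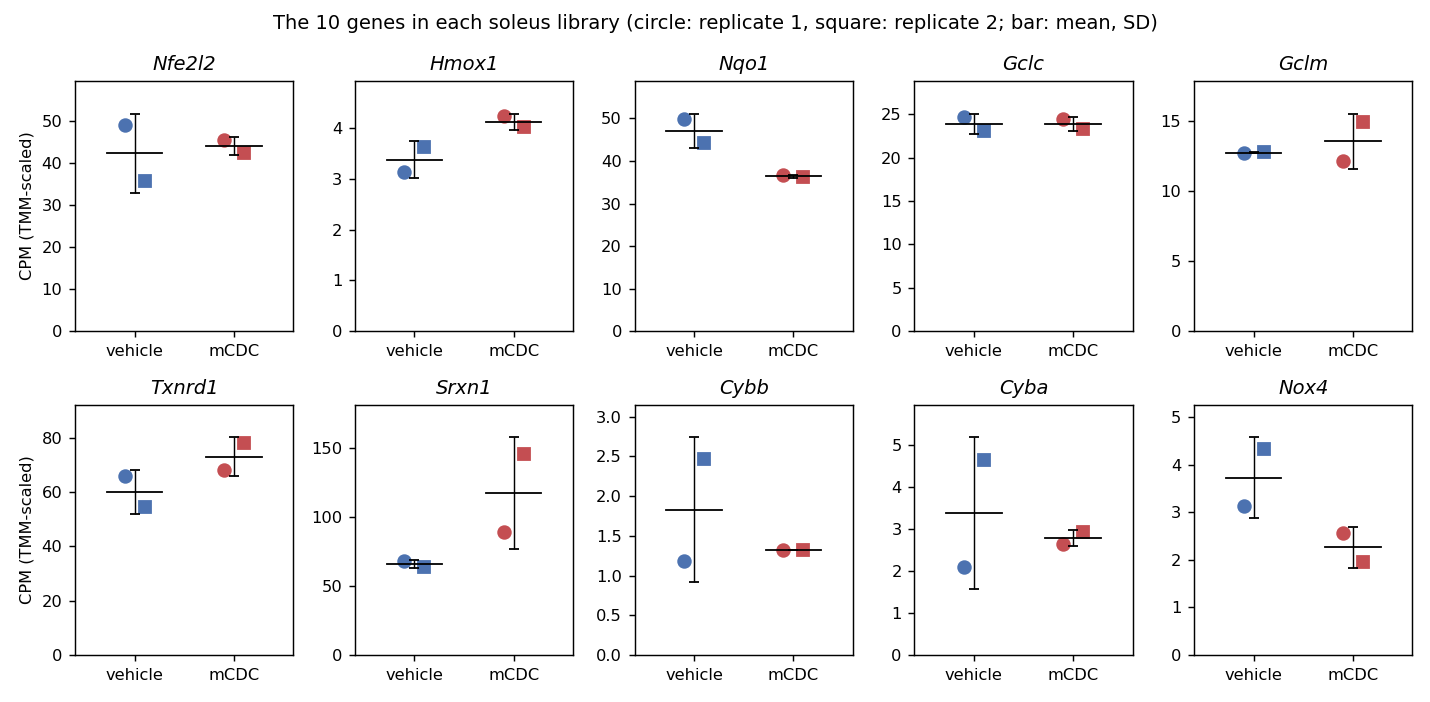
CPM with TMM scaling of each of the 10 genes (y axis, 1 panel a gene, from 0) in the 2 vehicle and 2 mCDC libraries (x axis), with circles for replicate 1, squares for replicate 2, and bars for the mean and SD of 2 libraries. Srxn1 reached 145.9 CPM in mCDC replicate 2 against 63.6 to 67.9 CPM in vehicle, while Cybb and Cyba were raised in vehicle replicate 2 alone.

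**Figure D2:**
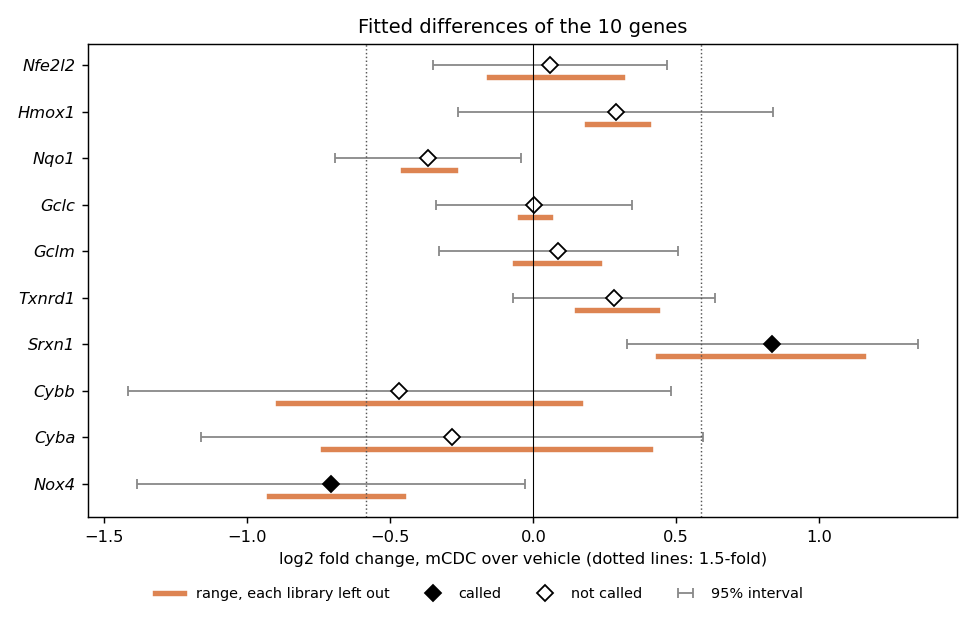
Fitted log2 fold change of each gene (x axis, mCDC over vehicle) with its 95% interval in grey and, in orange, the range of the estimate when each library was left out in turn. Filled diamonds are the 2 called genes, dotted lines mark a 1.5-fold change, and the intervals of Srxn1, Nqo1 and Nox4 do not include 0.

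Nfe2l2 (chr2:75675513-75704641, minus strand) encodes NRF2 itself. Its level was 45.5 and 42.5 CPM in mCDC replicates 1 and 2, and 48.9 and 35.6 CPM in vehicle replicates 1 and 2. The vehicle libraries spanned both mCDC libraries. The log2 fold change was 0.06 ± 0.18 (adjusted p = 0.954), with a 95% interval from -0.35 to 0.47, and it was -0.15 without vehicle replicate 2. A difference of 1.5-fold in either direction lay outside that interval.

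Srxn1 (chr2:152105516-152111376, plus strand) encodes sulfiredoxin, which repairs peroxiredoxins that have been over-oxidised. It was measured at 88.8 and 145.9 CPM in mCDC replicates 1 and 2, and at 67.9 and 63.6 CPM in vehicle replicates 1 and 2. Both mCDC libraries lay above both vehicle libraries, and mCDC replicate 2 stood well above mCDC replicate 1. The mean was 117.4 ± 40.3 CPM (SD, n = 2) in mCDC muscles and 65.7 ± 3.03 CPM (SD, n = 2) in vehicle muscles. The fitted difference was 1.79-fold, a log2 fold change of 0.84 ± 0.22 with a 95% interval from 0.33 to 1.34 (unadjusted p = 0.00536, adjusted p = 0.612). Without mCDC replicate 2 the log2 fold change was 0.44 and the gene was not called, and without mCDC replicate 1 it was 1.152 (adjusted p = 0.00763), which rests on mCDC replicate 2 alone. Over all alternatives run, the adjusted p ran from 0.00763 to 1.

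Some genes outside the 10 were also highest in that library. Mt1 and Mt2, metallothioneins that bind metals, reached 200.9 and 149.2 CPM in mCDC replicate 2, against at most 73.7 and 44.7 CPM in any other library. Atf3, a stress-induced transcription factor, was at 60.0 CPM there, at 21.6 CPM in mCDC replicate 1, and at 14.0 and 11.8 CPM in vehicle replicates 1 and 2. Over the 9 handling and immediate early genes the summed level was 700.1 and 724.8 CPM in mCDC replicates 1 and 2, and 546.7 and 507.6 CPM in vehicle. Of these 9, Atf3 and the heat shock gene Hspa1b were called higher, and 4 were highest in mCDC replicate 2, while Jun and Fosb were lowest there. The number called was 6 without mCDC replicate 1 and 4 without vehicle replicate 1 or without vehicle replicate 2. The part of these genes in the Srxn1 result was not tested.

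Nqo1 (chr8:107388225-107403206, minus strand) encodes the quinone reductase often used as a marker of NRF2 activity. It was at 36.7 and 36.1 CPM in mCDC replicates 1 and 2, and at 49.9 and 44.1 CPM in vehicle replicates 1 and 2. Both mCDC libraries lay below both vehicle libraries, the opposite order to Srxn1. The log2 fold change was -0.37 ± 0.14 with a 95% interval from -0.69 to -0.04 (unadjusted p = 0.0307, adjusted p = 0.708), and vehicle was 1.29-fold higher, so the gene fell short of the 1.5-fold threshold. The estimate stayed between -0.46 and -0.27 as each library was left out in turn. Within a library, which needs no scaling, Srxn1 had 2.42 and 4.04 counts per Nqo1 count in mCDC replicates 1 and 2, but 1.36 and 1.44 in the vehicle pair. This comparison was set side by side after both values had been seen, so no test is given.

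Txnrd1 (chr10:82833951-82897712, plus strand) encodes cytosolic thioredoxin reductase. Its level was 68.0 and 78.0 CPM in mCDC replicates 1 and 2, and 65.7 and 54.3 CPM in vehicle replicates 1 and 2. The groups did not overlap, but mCDC replicate 1 and vehicle replicate 1 were close. The fitted log2 fold change was 0.28 ± 0.15 (adjusted p = 0.736), with a 95% interval from -0.07 to 0.64. It was 0.15 without vehicle replicate 2 and 0.43 without vehicle replicate 1.

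Hmox1 (chr8:75093621-75100589, plus strand) encodes the inducible haem oxygenase, which breaks haem down to biliverdin, iron and carbon monoxide. It was a low transcript, with 112 and 88 counts in mCDC replicates 1 and 2 and 82 and 100 counts in vehicle replicates 1 and 2. After scaling these were 4.24 and 4.02 CPM in mCDC muscles and 3.13 and 3.64 CPM in vehicle muscles. The exact Poisson 95% intervals of single libraries overlapped across the groups, from 3.22 to 4.95 CPM in mCDC replicate 2 and from 2.96 to 4.42 CPM in vehicle replicate 2. The fitted log2 fold change was 0.29 ± 0.24 (adjusted p = 0.797).

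Gclc (chr9:77754535-77794485, plus strand) and Gclm (chr3:122245557-122270732, plus strand) encode the catalytic and the modifier subunit of glutamate-cysteine ligase, the first step of glutathione synthesis. Gclc was at 24.5 and 23.3 CPM in mCDC replicates 1 and 2, and at 24.7 and 23.1 CPM in vehicle replicates 1 and 2. Gclm was at 12.2 and 14.9 CPM in mCDC replicates 1 and 2, and at 12.7 and 12.8 CPM in vehicle replicates 1 and 2. Gclc varied least among the 6 enzymes, and both genes overlapped between groups. The log2 fold change of Gclc was 0.0020 ± 0.15 (adjusted p = 0.999, 95% interval -0.34 to 0.34), and its sign turned without mCDC replicate 1 (-0.03) or vehicle replicate 2 (-0.05). That of Gclm was 0.09 ± 0.18 (adjusted p = 0.924, 95% interval -0.33 to 0.51), and -0.066 without mCDC replicate 2. Both intervals exclude a 1.5-fold difference in either direction.

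Nox4 (chr7:87246096-87398710, plus strand) encodes an NADPH oxidase that is active without cytosolic activators and releases mainly hydrogen peroxide. It had 68 and 43 counts in mCDC replicates 1 and 2, and 82 and 119 counts in vehicle replicates 1 and 2. This is 2.58 and 1.96 CPM in mCDC muscles, and 3.13 and 4.33 CPM in vehicle muscles. Both mCDC libraries were below both vehicle libraries, with vehicle replicate 2 the highest. The log2 fold change was -0.71 ± 0.29 with a 95% interval from -1.39 to -0.03, so that vehicle was 1.64-fold higher (unadjusted p = 0.0425, adjusted p = 0.714). The gene was not called without mCDC replicate 1 (-0.92), mCDC replicate 2 (-0.53) or vehicle replicate 2 (-0.46), nor with DESeq2 (-0.70), the replicate block (-0.70) or the length and GC trend removed (-0.62).

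Cybb (chrX:9435252-9487771, minus strand) encodes the catalytic subunit of the phagocyte oxidase NOX2. It had 35 and 29 counts in mCDC replicates 1 and 2, and 31 and 68 counts in vehicle replicates 1 and 2. After scaling these were 1.33 and 1.32 CPM in mCDC muscles, and 1.18 and 2.47 CPM in vehicle muscles. Vehicle replicate 1 was the lowest of the 4 libraries and vehicle replicate 2 the highest. Their Poisson 95% intervals did not meet, from 0.804 to 1.68 CPM in vehicle replicate 1 and from 1.92 to 3.14 CPM in vehicle replicate 2. The fit gave a log2 fold change of -0.47 ± 0.41 (adjusted p = 0.811, 95% interval -1.42 to 0.48).

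Cyba (chr8:122424776-122432930, minus strand) encodes the smaller membrane subunit, with which both NOX2 and NOX4 pair. It followed the same order of vehicle libraries, with 70 and 64 counts in mCDC replicates 1 and 2, and 55 and 128 counts in vehicle replicates 1 and 2. These were 2.65 and 2.92 CPM in mCDC muscles, and 2.10 and 4.66 CPM in vehicle muscles. The fit gave a log2 fold change of -0.28 ± 0.38 (adjusted p = 0.869, 95% interval -1.16 to 0.59). For both genes the vehicle replicate that was used set the outcome. Without vehicle replicate 1, Cybb (-0.89) and Cyba (-0.74) were each called lower in mCDC muscles, and without vehicle replicate 2 the sign turned for both, to 0.16 for Cybb and 0.41 for Cyba.

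Vehicle replicate 2 also had the highest levels of markers of several other cell types. The 18 phagocyte markers summed to 88.1 and 102.4 CPM in mCDC replicates 1 and 2, and to 79.9 and 129.7 CPM in vehicle replicates 1 and 2. Of 17 tested, 12 were highest in vehicle replicate 2 and 2 were called. Csf1r, the receptor for macrophage colony-stimulating factor, was called lower, with a log2 fold change of -0.67. Cd68, a lysosomal protein of macrophages, was called higher (log2 fold change 1.49), at 15.4 CPM in mCDC replicate 2 and 2.71 to 4.15 CPM in the other 3 libraries. Neither was called with DESeq2. Ptprc, the pan-leukocyte CD45 gene, and Adgre1, the F4/80 gene of macrophages, were not called, with log2 fold changes of -0.45 and -0.55. As a share of the phagocyte sum, Cybb was 1.5% and 1.29% in mCDC muscles and 1.48% and 1.91% in vehicle muscles, and Cyba was 3.01% and 2.86% in mCDC muscles and 2.63% and 3.59% in vehicle muscles. The difference between the vehicle libraries was thus smaller in these shares than in CPM, and vehicle replicate 2 was still the highest. The sum leans on a few genes, so the shares follow them too. Lgals3 was at 24.34 and 25.65 CPM and Lyz2 at 9.69 and 22.92 CPM in vehicle replicates 1 and 2. In a whole muscle, fewer cells of a type and less RNA per cell cannot be told apart.

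Markers of fibroblasts, a cell type that Nox4 is known from, summed to 463.1 and 420.7 CPM in mCDC replicates 1 and 2, and to 454.5 and 745.5 CPM in vehicle replicates 1 and 2. All 10 were highest in vehicle replicate 2, and Pdgfra, Lum and Col1a2 were called lower in mCDC muscles, against 1 of the 10 with the length and GC trend removed. The 8 endothelial markers summed to 144.3 and 113.0 CPM in mCDC muscles, and to 121.1 and 260.0 CPM in vehicle muscles. All 8 were highest in vehicle replicate 2, and Vwf was called lower. The 5 red cell markers summed to 244.2 to 279.5 CPM in the other 3 libraries and to 454.1 CPM in vehicle replicate 2, with Hba-a2 called lower. Smooth muscle markers summed to 155.4 to 206.1 CPM, with Rgs5 of 6 genes called lower (none without mCDC replicate 2 or with the length and GC trend removed), and 5 adipocyte markers to 123.6 to 203.7 CPM, with none called. That last sum was mostly Fabp4, at 199.9 CPM in vehicle replicate 2, where the other 4 adipocyte markers (Adipoq, Plin1, Cidec and Lep) were each lowest. The number of adipocyte markers called was 4 of 5 without vehicle replicate 1 (median log2 fold change 1.148) and also without vehicle replicate 2 (-0.85). When vehicle replicate 2 was left out, median log2 fold changes went from -0.48 to -0.12 for fibroblast markers, from -0.53 to 0.11 for endothelial markers and from -0.12 to 0.36 for phagocyte markers, and no fibroblast or phagocyte marker was called. When vehicle replicate 1 was left out instead, 8 of 10 fibroblast, 8 of 8 endothelial and 5 phagocyte markers were called, in a fit that called 276 genes higher and 830 lower of 14046 tested. Of the 9 neutrophil markers in the table, 2 were tested and neither was called, and Mpo and Camp had no count in any library. The part of these cell types in the oxidase values was not tested.

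**Figure D3:**
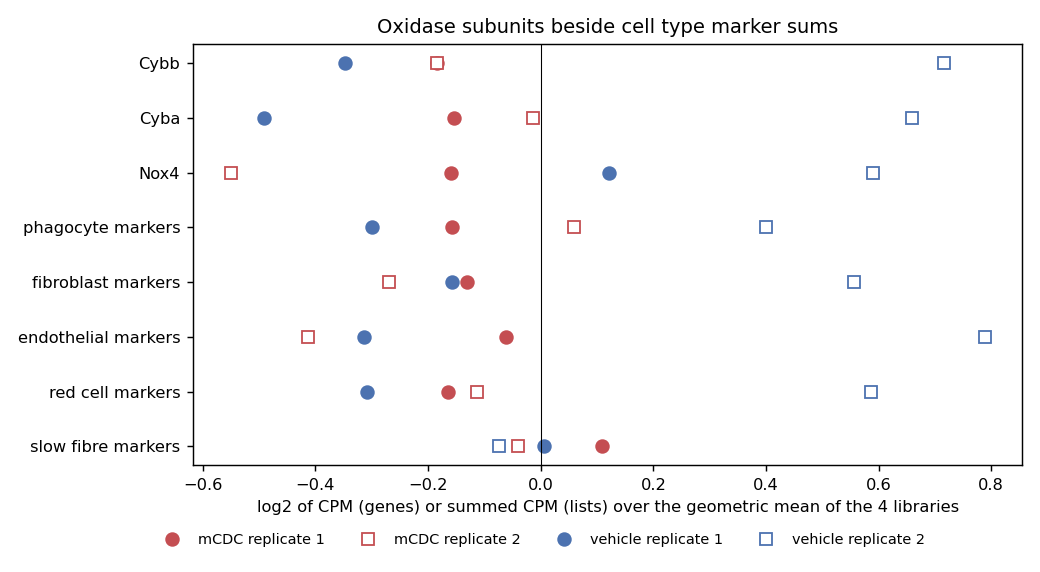
Level of each oxidase gene and of each summed marker list in each library (x axis, log2 of the level over the geometric mean of the 4 libraries), with filled circles for replicate 1, open squares for replicate 2, red for mCDC and blue for vehicle. The blue open square of vehicle replicate 2 lies to the right in the 7 rows plotted above the slow fibre markers, a list that also holds Acta1 and Ckm of all skeletal fibres. Adipocyte, smooth muscle and fast fibre markers are not plotted, and the fast fibre sum was highest in mCDC replicate 1.

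Per length of transcript, Srxn1 and Nqo1 were the most abundant of the 10 and Cybb the least. The order of median levels was Srxn1 at 27.9 CPM per kb, Nqo1 at 26.0, Txnrd1 at 18.4, Nfe2l2 at 17.8, Gclc at 6.99, Cyba at 3.75, Hmox1 at 2.44, Gclm at 2.28, Nox4 at 0.760 and Cybb at 0.279 CPM per kb. Neighbours whose ranges over the 4 libraries overlapped were Srxn1 and Nqo1, Txnrd1 and Nfe2l2, and Hmox1 and Gclm, so these 3 pairs were not separated by their spread. Srxn1 was above Nqo1 in both mCDC libraries (31.6 against 23.6 and 51.9 against 23.3 CPM per kb) and below it in both vehicle libraries (24.1 against 32.1 and 22.6 against 28.4 CPM per kb). Lengths were those of the longest GENCODE transcript. With the median transcript length, Gclm was at 3.87 CPM per kb and would pass Hmox1.

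**Figure D4:**
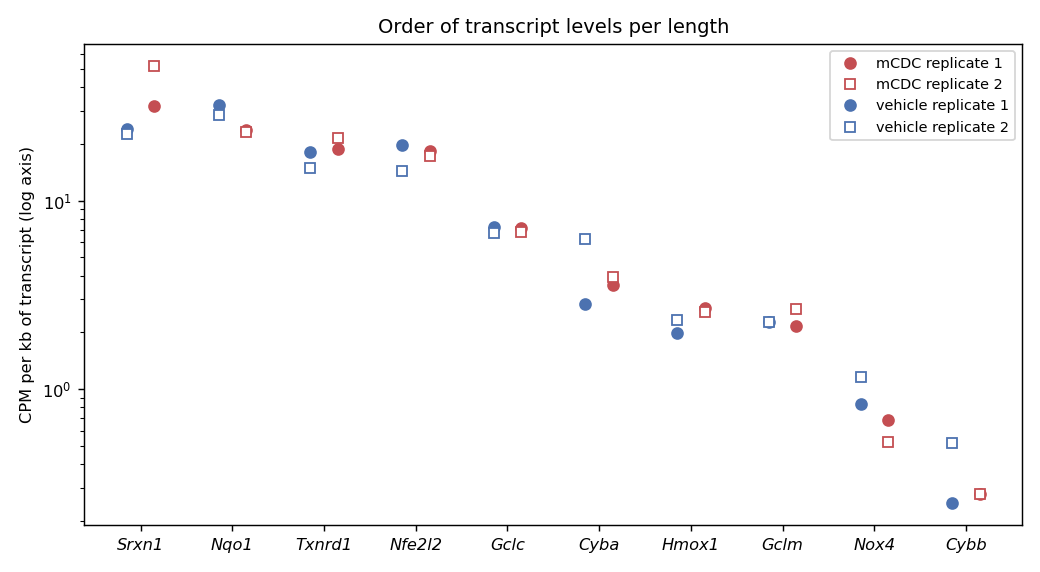
Level of each gene in CPM per kb of its longest transcript (y axis, log scale), ordered by median, with red for mCDC, blue for vehicle, circles for replicate 1 and open squares for replicate 2. The NADPH oxidase genes Nox4 and Cybb lay below 1.2 CPM per kb in every library, and Srxn1 and Nqo1 at 22.6 CPM per kb or more.

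Other genes of the pathway were read from the same fit, by lists. None of the 15 NRF2 regulators and partners was called, with log2 fold changes from -0.29 to 0.67 and a median of 0.07. The inhibitor Keap1 (0.10) and Bach1 (0.05), a repressor that competes with NRF2 for its sites, were both near the median. With DESeq2 1 of the 15 was called, and 2 without mCDC replicate 1 or vehicle replicate 1.

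Of 36 other NRF2 target genes 30 were tested, and 2 were called, both lower, with a median log2 fold change of 0.0013. Aox1, an aldehyde oxidase, was at 98.6 and 68.1 CPM in mCDC replicates 1 and 2, and at 120.2 and 169.3 CPM in vehicle replicates 1 and 2. Its log2 fold change was -0.80, and it was not called without mCDC replicate 2 (-0.55) or vehicle replicate 2 (-0.53). Gsta2, a glutathione transferase, had 4 and 0 counts in mCDC muscles and 13 and 12 in vehicle muscles. It has close paralogs between which reads may be divided, which was not measured here, and its value is uncertain at these counts. It was not called with DESeq2 or without mCDC replicate 2, vehicle replicate 1 or vehicle replicate 2. Glutathione reductase (Gsr, 0.12), thioredoxin (Txn1, 0.19) and peroxiredoxin 1 (Prdx1, 0.25) were not called. The cystine transporter Slc7a11 was not tested, with 1 to 4 counts a library. The count of 2 was 5 without vehicle replicate 1, and 1 without vehicle replicate 2, with DESeq2 or with at least 10 counts asked of every library.

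Of 41 other antioxidant enzymes and metal-binding proteins, all tested, 2 were called higher and 1 lower, and the median log2 fold change was 0.07. Chac1, which degrades glutathione, was at 8.11 and 4.98 CPM in mCDC replicates 1 and 2, and at 14.4 and 16.8 CPM in vehicle replicates 1 and 2. Its log2 fold change was -1.25, and it was called under every alternative run, including each library left out. The metallothioneins Mt1 (1.17) and Mt2 (1.59) were called higher. They were not called without mCDC replicate 2, where their log2 fold changes were 0.27 and 0.48, without vehicle replicate 2 (0.99 and 1.35) or with DESeq2. The superoxide dismutases Sod1 (0.10) and Sod2 (0.15) and catalase (Cat, 0.15) were not called. The count of 3 was 1 with DESeq2, without mCDC replicate 2 or without vehicle replicate 2, and 5 without mCDC replicate 1 or vehicle replicate 1.

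Among 17 other NADPH oxidase genes 10 were tested and none was called, with a median log2 fold change of -0.15. The cytosolic activators of NOX2 were low, with Ncf1 at 1.40 and 1.51 CPM in mCDC muscles and 1.45 and 2.55 CPM in vehicle muscles. Like Cybb and Cyba, Ncf1 was highest in vehicle replicate 2. The log2 fold changes were -0.46 for Ncf1, -0.37 for Ncf4 and 0.52 for Rac2, the small GTPase of the phagocyte complex. Nox3 and Noxa1 had no count in any library, and Nox1 had 2 counts, both in vehicle replicate 1. The sign of this median was not stable. It was -0.56, with 1 call, without vehicle replicate 1, 0.026 without vehicle replicate 2, and 0.043 with at least 10 counts asked of every library.

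Of 16 genes of haem and iron handling 13 were tested, and 1 was called in each direction around a median log2 fold change of 0.06. Lcn2, the siderophore-binding lipocalin, had 19 and 24 counts in mCDC replicates 1 and 2 and 7 and 3 counts in vehicle replicates 1 and 2. Its log2 fold change was 2.24, and it was called under every alternative in which it was tested. Flvcr1, a haem exporter, was at 13.4 and 8.22 CPM in mCDC replicates 1 and 2, and at 17.7 and 22.3 CPM in vehicle replicates 1 and 2. Its log2 fold change was -0.89, and it was not called without mCDC replicate 2 (-0.58) or vehicle replicate 2 (-0.71). The count of 2 was 1 without mCDC replicate 2 or with at least 10 counts asked of every library.

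**Figure D5:**
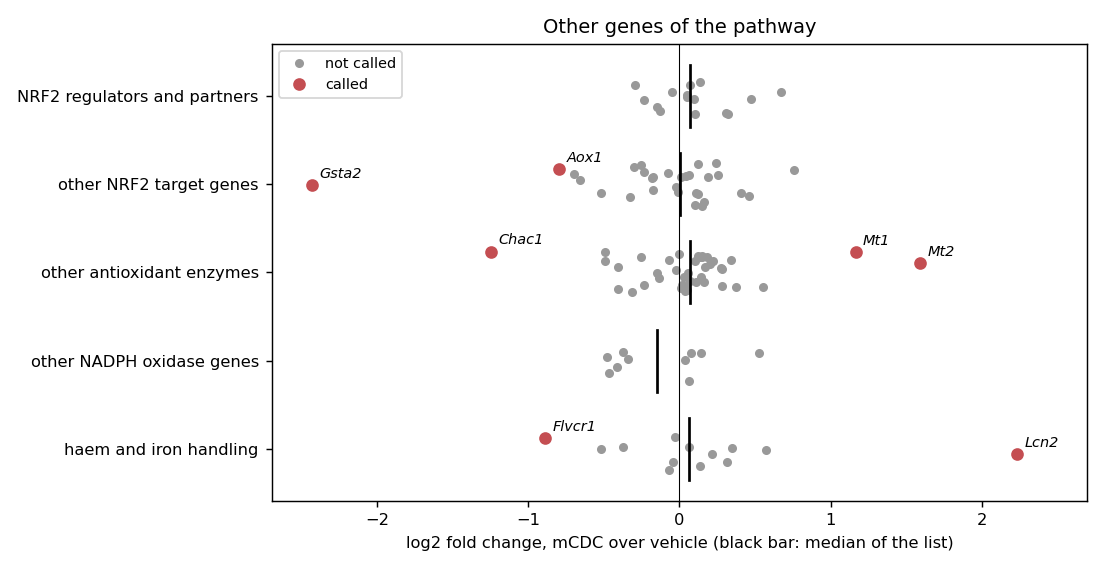
Log2 fold change (x axis, mCDC over vehicle) of each tested gene of the 5 pathway lists (rows, spread vertically for legibility), with called genes in red and named, and a black bar at each list's median. Most genes lie within 0.5 of 0, and the 5 medians run from -0.15 to 0.07.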

How the data were processed

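RNA-seq of the soleus was available for 2 mCDC and 2 vehicle libraries, grouped by the treatment label. The authors mapped single-end reads with Bowtie2 2.1.0 and deposited RSEM 1.2.15 expected counts per gene without normalization, on mm10 per the labels. RSEM divides reads that fit several transcripts, and 15.72% of all deposited values were not whole, but none of the 40 values of the 10 genes. The methods name an xGen kit and the labels a stranded TruSeq kit, and whether counting used strand is not given in the sources used here.

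Rounded to whole numbers, the expected counts of the whole table went into edgeR 4.0.16 in R 4.3.3, using filterByExpr, trimmed mean of M-values (TMM) scaling and the quasi-likelihood F-test (legacy = FALSE), the study's thresholds of fold and unadjusted p, and Benjamini-Hochberg adjusted p over the 13652 genes tested. CPM used TMM-scaled library sizes, without a prior count. The SE of a log2 fold change is its size over the square root of F. The scripts were tested on simulated data, in which 200 genes were changed. Coordinates and transcript lengths came from GENCODE annotation of GRCm38.

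The 10 genes, the lists and the tests were chosen with earlier results of these data known. All 10 are named whatever their values, and from the other lists each called gene and a set of well known members. The value of 1 gene of that set is not reported here. The lists hold 226 symbols, of which 217 matched the table by their own name, 6 by an older name (Adgre1 and Flvcr1 among them) and 3 were not listed. Alternatives were DESeq2 1.42.0, RLE (DESeq2-type) and upper-quartile scaling, 2 other filters on low counts, the legacy test, a block for the replicate number, a fit with the length and GC trend removed (natural splines with 5 degrees of freedom, 99.14% of tested genes with values), and leaving out each library in turn. A comparison with 1 library left in a group assumes that it varies like the other group.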

Additional observations from a re-analysis of the deposited data

How the results depend on the processing

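Of the 10 genes, 2 were called, and 1 with DESeq2, with the replicate block or with the length and GC trend removed, since Nox4 was lost in each. With each library left out in turn the number ran from 0 (without mCDC replicate 2) to 4 (without vehicle replicate 1), the median of the 10 genes from -0.014 to 0.12, and that of the oxidase subunits from -0.89 to 0.16. Among the fits with a library left out, calls over all genes were also fewest without mCDC replicate 2 and most without vehicle replicate 1. The ends of the range in number called are thus not particular to the 10 genes. Leaving out mCDC replicate 1 or vehicle replicate 2 raised the calls over all genes but lowered those among the 10. DESeq2 called 157 genes higher and 270 lower of 18141 tested. Signs turned for Gclc under upper-quartile scaling (-0.029) and with at least 10 counts in every library (-0.0043). With each library left out, log2 fold changes ran from 0.44 to 1.152 for Srxn1, -0.15 to 0.31 for Nfe2l2, -0.047 to 0.058 for Gclc, -0.066 to 0.23 for Gclm, -0.89 to 0.16 for Cybb and -0.74 to 0.41 for Cyba. They ran from 0.15 to 0.43 for Txnrd1 and from 0.19 to 0.40 for Hmox1. Srxn1, Nqo1, Hmox1, Txnrd1 and Nox4 kept their direction under every alternative run. These are the genes whose groups did not overlap, so leaving out a library could hardly turn their sign, and that part is no added support.

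Replicate numbers are shared by the groups without a stated link, and deviations of same-numbered libraries had a correlation of -0.04 across genes. The replicate block gave 172 genes higher and 310 lower, against 172 and 374 without it. Over all genes, 112 genes were higher and 233 lower without mCDC replicate 2. Leaving out mCDC replicate 1 gave 399 and 550, leaving out vehicle replicate 1 gave 276 and 830, and leaving out vehicle replicate 2 gave 216 and 347. Cybb, Cyba, Nox4 and Hmox1 rest on 29 to 128 counts a library, which limits their precision. The causes were not tested. With 2 libraries a group, single libraries could not be checked as outliers.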
